A study of Homo sapiens with 6 samples.

Results

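The p38 kinase cascade was followed here through 10 genes: the 4 p38 isoforms (MAPK11, MAPK12, MAPK13 and MAPK14), 3 upstream kinases (MAP2K3, MAP2K6 and MAP3K5) and 3 effectors (MAPKAPK2, MAPKAPK3 and ATF2). They were chosen by name from the 48183 gene names of the deposited count table, and identifiers that share a name were summed, although each of the 10 genes had a single identifier. The data are bulk RNA-seq of human embryonic stem cells (ESCs), from a study that asked whether AMPK and p38 signalling can move primed ESCs, which resemble the epiblast after implantation, to the naive state, which resembles the epiblast before implantation. Naive ESCs gave 4 libraries (AICAR 1, AICAR 2, VPA and CA-p38) and primed ESCs gave 2 libraries (primed EOS and primed CA-p38). The sample labels name the cell line H1, whereas the methods of the study name H9.

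All 6 libraries came from cells with the EOS-GFP reporter, a piggyBac transgene in which an Oct4 distal enhancer element drives GFP and puromycin resistance. The AICAR, VPA and primed EOS libraries came from this EOS line with no further transgene. The CA-p38 and primed CA-p38 libraries came from a derived line that also carried a doxycycline-inducible, constitutively active p38 (CA-p38) with rtTA and mCherry. To make this line, cells were treated with doxycycline and sorted for mCherry, so its primed cells also descend from cells once given doxycycline. Primed cells were grown on Matrigel in StemFit AK02N without feeders, whereas the culture of naive cells used inactivated mouse embryonic fibroblasts. Before RNA was taken, naive cells were sorted by flow cytometry, whereas for primed cells the methods describe dissociation and no such sort. State, medium, feeders and this sort therefore cannot be told apart. The study also describes a later transfer of the naive CA-p38 cells to culture without feeders. It does not say from which of these cultures the CA-p38 library came. Naive conversion used AICAR, an activator of AMPK, in PXGL medium (a MEK inhibitor, a tankyrase inhibitor, a PKC inhibitor and LIF) in 2 libraries, induction of CA-p38 in PXGL in 1 library, and valproic acid (VPA), a histone deacetylase inhibitor, with the MEK inhibitor and LIF in 1 library. The CA-p38 cells were afterwards grown in PXGL without doxycycline, and naive cells of every kind had been expanded over several passages before they were sorted as CD75+ and SUSD2+. The libraries therefore show established naive cells, and not the period of p38 activation itself. The AICAR libraries were taken at successive passages, while the VPA and CA-p38 libraries followed inductions and expansions of other lengths. Nothing in the labels says whether the libraries of a state came from separate cultures, so p-values measure the spread between these libraries, which may be partly technical.

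In the p38 cascade, stress and cytokines activate MAP3 kinases such as ASK1 (MAP3K5). These phosphorylate the MAP2 kinases MKK3 (MAP2K3) and MKK6 (MAP2K6), which in turn phosphorylate a threonine and a tyrosine in the activation loop of p38. Active p38 phosphorylates the kinases MK2 (MAPKAPK2) and MK3 (MAPKAPK3), which act on mRNA-binding proteins and small heat shock proteins, and transcription factors such as ATF2. Signalling through the cascade is set by phosphorylation, which mRNA levels do not measure.

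The activation loop of each kinase is shown because it is the segment on which the steps of the cascade act, and because it shows how alike the isoforms are. The sequences are coding DNA of the MANE Select transcripts, read 5′ to 3′ on the coding strand from GENCODE release 44 on GRCh38. They begin at the conserved Asp-Phe-Gly codons, and capitals mark the phosphorylated threonine and tyrosine with the glycine between them in p38, the serine and threonine with the residues between them in MKK3 and MKK6, and the threonine with the proline after it in MK2 and MK3.
MAPK11: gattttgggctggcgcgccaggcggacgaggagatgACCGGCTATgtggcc
MAPK12: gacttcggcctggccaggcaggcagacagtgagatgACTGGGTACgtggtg
MAPK13: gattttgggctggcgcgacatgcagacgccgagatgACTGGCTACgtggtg
MAPK14: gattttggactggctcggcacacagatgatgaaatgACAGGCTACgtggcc
MAP2K3: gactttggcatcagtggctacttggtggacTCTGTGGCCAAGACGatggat
MAP2K6: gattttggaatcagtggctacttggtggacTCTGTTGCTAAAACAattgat
MAPKAPK2: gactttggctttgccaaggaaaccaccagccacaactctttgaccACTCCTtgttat
MAPKAPK3: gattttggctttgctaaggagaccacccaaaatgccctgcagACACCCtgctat

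Each stretch lies in 1 coding exon: MAPK11 at chr22:50266992-50267042 and MAPK12 at chr22:50256143-50256193 on the minus strand, and MAPK13 at chr6:36136662-36136712, MAPK14 at chr6:36075854-36075904, MAP2K3 at chr17:21304479-21304529, MAP2K6 at chr17:69523567-69523617, MAPKAPK2 at chr1:206730026-206730082 and MAPKAPK3 at chr3:50644463-50644516 on the plus strand. The first marked codon is number 180 in MAPK11, MAPK13 and MAPK14, 183 in MAPK12, 218 in MAP2K3, 207 in MAP2K6, 222 in MAPKAPK2 and 201 in MAPKAPK3. Over the aligned coding sequence, pairs of p38 isoforms were 64.4% (MAPK13 and MAPK14) to 72.2% (MAPK12 and MAPK13) identical, MAP2K3 and MAP2K6 were 72.1% identical, and MAPKAPK2 and MAPKAPK3 were 69.1% identical. The longest identical run was 26 bases between 2 p38 isoforms (MAPK11 and MAPK14), 26 bases between MAP2K3 and MAP2K6 and 38 bases between MAPKAPK2 and MAPKAPK3. No member shared a stretch of 50 bases with another member. With other genes, MAPK12 shared 27.5% of its distinct 50-base stretches, 26.2% with its neighbour HDAC10, so its counts are uncertain. MAPKAPK3 shared 4.28% with CISH, and the other members shared at most 2.39%.

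Total counts were 46823699 to 54277064 per library, and 3 counts, taken as the limit of detection, corresponded to 0.0552 to 0.0613 CPM (counts per 1000000 counts of the library, with TMM scaling). The state markers separated the libraries as labelled. The 8 naive markers summed to 5070 to 5990 CPM in naive and 8.51 to 12.3 CPM in primed libraries, and the 8 primed markers to 59.3 to 75.2 CPM and 2940 to 3540 CPM, with no overlap for any of the 16 genes. SUSD2 is among the naive markers, and its protein was used to sort the naive cells, so its separation is not independent of the sort. Of the markers of other cells, the fibroblast, trophectoderm and neural sums did not overlap between the states, whereas the endoderm sums did. The sums hide single markers that went the other way. Every naive library lay above both primed libraries for 1 and below both for 5 of 8 fibroblast markers. These numbers were 5 and 0 of 7 trophectoderm, 1 and 2 of 6 neural and 1 and 3 of 6 endoderm markers. Over all genes tested, 64.9% lay wholly on 1 side. The 8 fibroblast markers summed to 31.0 to 73.0 CPM in naive and 192 to 211 CPM in primed libraries, the 7 trophectoderm markers to 25.3 to 26.7 and 3.92 to 5.38 CPM, the 6 neural markers to 156 to 197 and 127 to 146 CPM, and the 6 endoderm markers to 13.1 to 18.6 and 8.79 to 32.9 CPM. None of these 27 markers was at or under 3 counts in every naive library, but 3 fibroblast, 3 neural, 1 trophectoderm and 2 endoderm markers were under 1 CPM in every naive library. The part of these other markers in the results below was not tested.

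Of the 10 genes, 6 differed between naive and primed libraries, 5 of them lower and 1 higher in the naive ones (quasi-likelihood test of edgeR, Benjamini-Hochberg adjusted p under 0.05 over all 26497 genes tested). All 10 passed the filter on low counts. Lower in naive cells were MAPKAPK3, MAP2K6, ATF2, MAP3K5 and, by a small margin, MAPKAPK2. MAPK13 was higher, a call that rested on 1 library. MAPK11, MAPK12, MAPK14 and MAP2K3 did not pass the test. Without the primed CA-p38 library, and likewise without both libraries of the CA-p38 line, 4 genes differed, since MAPK13 and MAPKAPK2 no longer passed. With the AICAR libraries summed into 1 sample, 6 genes differed. The states differ widely, since 53.1% of all genes tested passed, 26% higher and 27% lower in naive cells. Naive and primed libraries did not overlap for 7 of the 10 genes, against 64.9% of all genes tested. The median log2 fold change was -0.17 over the 10 genes and 0.11 over all genes tested. In bulk RNA, fewer cells expressing a gene and less RNA per cell cannot be told apart.

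**Figure D1:**
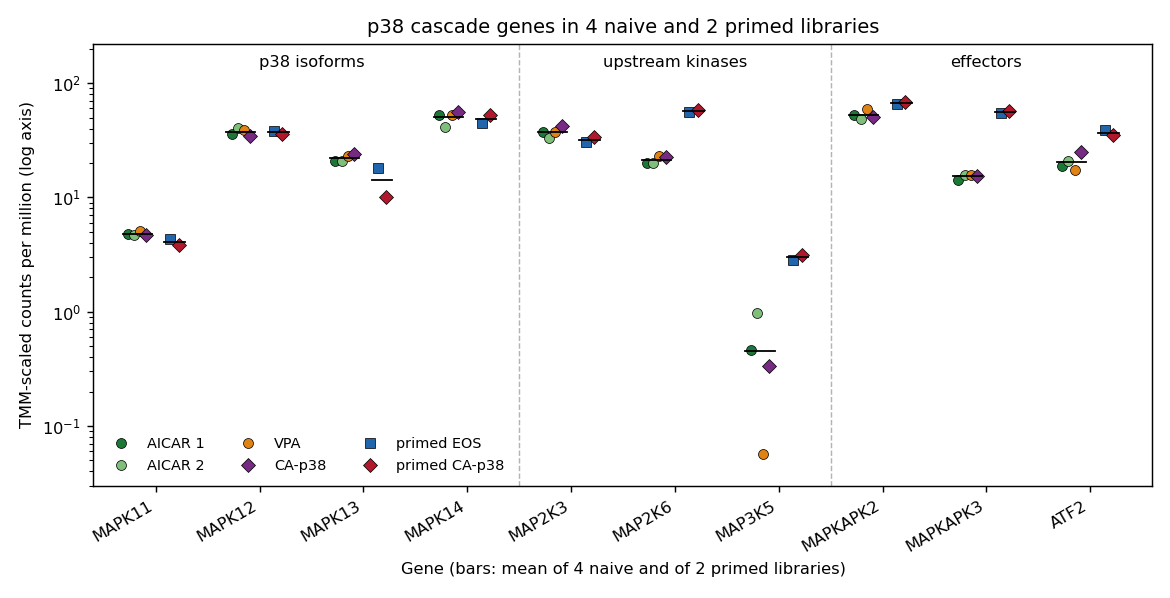
TMM-scaled CPM (log axis) of the 10 genes, 1 point per library, with bars at the means of the 4 naive and the 2 primed libraries. MAP2K6, MAP3K5, MAPKAPK3 and ATF2 lie clearly lower in every naive library, whereas the naive and primed points of MAPK12, MAPK14 and MAP2K3 overlap, and MAP3K5 spans 0.0573 to 0.966 CPM within the naive libraries.

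Of the 4 p38 isoforms, only MAPK13 passed the test between the states, against 53.1% of all genes tested. MAPK14 (p38 alpha, ENSG00000112062, chromosome 6, 36027782 to 36111236, plus strand), the isoform expressed in most tissues and the main target of p38 inhibitors, had 52.1 CPM in AICAR 1, 41.1 in AICAR 2, 53.1 in VPA, 55.4 in CA-p38, 45.2 in the primed EOS and 52.1 in the primed CA-p38 library. The groups overlapped, and the AICAR libraries alone differed by 1.27-fold, more than the means of the states. The log2 fold change of naive over primed cells was 0.05 (standard error, SE, 0.14, 95% confidence interval -0.25 to 0.35, adjusted p = 0.778).

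MAPK12 (p38 gamma, ENSG00000188130, chromosome 22, 50245450 to 50261716, minus strand), known from muscle, had 36.2, 40.5, 38.7 and 34.2 CPM in the AICAR 1, AICAR 2, VPA and CA-p38 libraries, against 38.3 in the primed EOS and 35.9 CPM in the primed CA-p38 library. The groups overlapped, with means of 37.4 ± 2.76 CPM (SD, n = 4) and 37.1 ± 1.72 CPM (SD, n = 2) and a log2 fold change of 0.01 (SE 0.12, 95% confidence interval -0.26 to 0.28, adjusted p = 0.943).

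MAPK11 (p38 beta, ENSG00000185386, chromosome 22, 50263713 to 50270767, minus strand), a close relative of p38 alpha, had 4.80, 4.71, 5.06 and 4.65 CPM in the naive libraries in the same order, against 4.32 in the primed EOS and 3.86 CPM in the primed CA-p38 library. Every naive library lay above both primed libraries, but the log2 fold change of 0.23 (SE 0.23, 95% confidence interval -0.26 to 0.73, adjusted p = 0.416) did not pass the test.

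MAPK13 (p38 delta, ENSG00000156711, chromosome 6, 36127809 to 36144524, plus strand), an isoform known from epithelia, had 20.9 CPM in AICAR 1, 20.9 in AICAR 2, 23.2 in VPA and 23.9 in CA-p38, against 18.0 in the primed EOS and 10.1 CPM in the primed CA-p38 library. The naive libraries lay within 1.14-fold of each other and above both primed libraries, which differed by 1.78-fold. MAPK13 was 1.58-fold higher in naive cells (log2 fold change 0.66, SE 0.21, adjusted p = 0.0167). The call depended on the primed CA-p38 library. Without it the log2 fold change was 0.31 (adjusted p = 0.227), and without both libraries of the CA-p38 line it was 0.26 (adjusted p = 0.373).

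MAPK14 and MAPK12 made up most of the p38 isoform mRNA in each library, but their order depended on the gene length used. The shares are also uncertain because MAPK12 has 26.2% of its distinct 50-base stretches in common with HDAC10. Per kb of the union of exons, MAPK14 was 40.1% to 48.3% of the summed isoforms in naive libraries, 44.7% in the primed EOS and 53.4% in the primed CA-p38 library, and MAPK12 was 21.6% to 28.7% in naive libraries, 27.5% in the primed EOS and 26.7% in the primed CA-p38 library. Per kb of the MANE Select transcript, which for MAPK12 is 1.78 kb against 9.32 kb for the union of exons, MAPK12 was 50.5% to 60.3% in naive libraries and 58.4% and 56.5% in primed libraries, and MAPK14 was 25.8% to 34.5% and 29% and 34.6%. MAPK11 was the smallest share with either length, apart from a near tie with MAPK13 in primed CA-p38 (9.95% and 9.96% per union of exons, 4.47% and 4.48% per MANE Select transcript). MAPK13 was 18.2% to 20.0% of the sum per union of exons in naive libraries, 17.1% in the primed EOS and 9.96% in the primed CA-p38 library.

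Among the upstream kinases, MAP2K6 and MAP3K5 were lower in naive cells, whereas MAP2K3 did not pass the test. MAP2K6 (MKK6, ENSG00000108984, chromosome 17, 69414697 to 69553865, plus strand), a kinase that activates every p38 isoform, had 20.0 CPM in AICAR 1, 19.9 in AICAR 2, 23.0 in VPA and 22.7 in CA-p38, against 56.3 in the primed EOS and 58.1 CPM in the primed CA-p38 library. The groups were far apart, with the highest naive library at 23.0 CPM. MAP2K6 was 2.67-fold lower in naive cells (log2 fold change -1.42, SE 0.12, adjusted p = 6.06e-07), and the log2 difference was -1.42 within the EOS line and -1.35 within the CA-p38 line.

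MAP2K3 (MKK3, ENSG00000034152, chromosome 17, 21284672 to 21315232, plus strand), the other kinase dedicated to p38, had 37.4, 33.3, 37.6 and 42.5 CPM in the AICAR 1, AICAR 2, VPA and CA-p38 libraries, against 30.4 in the primed EOS and 33.5 CPM in the primed CA-p38 library. AICAR 2 lay just below primed CA-p38, so the groups overlapped, and the log2 fold change was 0.24 (SE 0.13, 95% confidence interval -0.05 to 0.53, adjusted p = 0.152). When libraries were scaled by their totals it was 0.34 and passed the test (adjusted p = 0.039). Counts of MAP2K3 were 1.64 to 1.87 times those of MAP2K6 in naive libraries and 0.540 and 0.577 times in primed libraries, so the ratio was 3.16-fold higher in naive cells. Per kb of MANE Select transcript, the mean ratio was 10.5 in naive and 3.32 in primed libraries.

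MAP3K5 (ASK1, ENSG00000197442, chromosome 6, 136557046 to 136793097, minus strand), a MAP3 kinase that responds to oxidative stress, was the lowest of the 10 genes per length in every library. It had 25 counts in AICAR 1, 48 in AICAR 2, 3 in VPA and 17 in CA-p38, against 140 in the primed EOS and 154 in the primed CA-p38 library. These correspond to 0.460, 0.966, 0.0573 and 0.336 CPM in naive libraries and to 2.83 and 3.15 CPM in primed libraries. Every naive library lay below both primed libraries, and the naive libraries differed by 16.9-fold among themselves. The lowest of them, VPA, lay at the limit of detection of 3 counts, so the size of this spread is uncertain. The exact Clopper-Pearson interval (95%, counting error only) was 0.0118 to 0.168 CPM in VPA and 0.713 to 1.28 CPM in AICAR 2, so these libraries differed by more than counting error. MAP3K5 was 6.56-fold lower in naive cells (log2 fold change -2.71, SE 0.61, adjusted p = 0.00213). Its log2 fold change was -3.37 without AICAR 2 and -2.36 without VPA, and with each other library left out it lay between these values. It passed the test each time, but it could not be tested under a filter of 10 counts in each library.

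**Figure D2:**
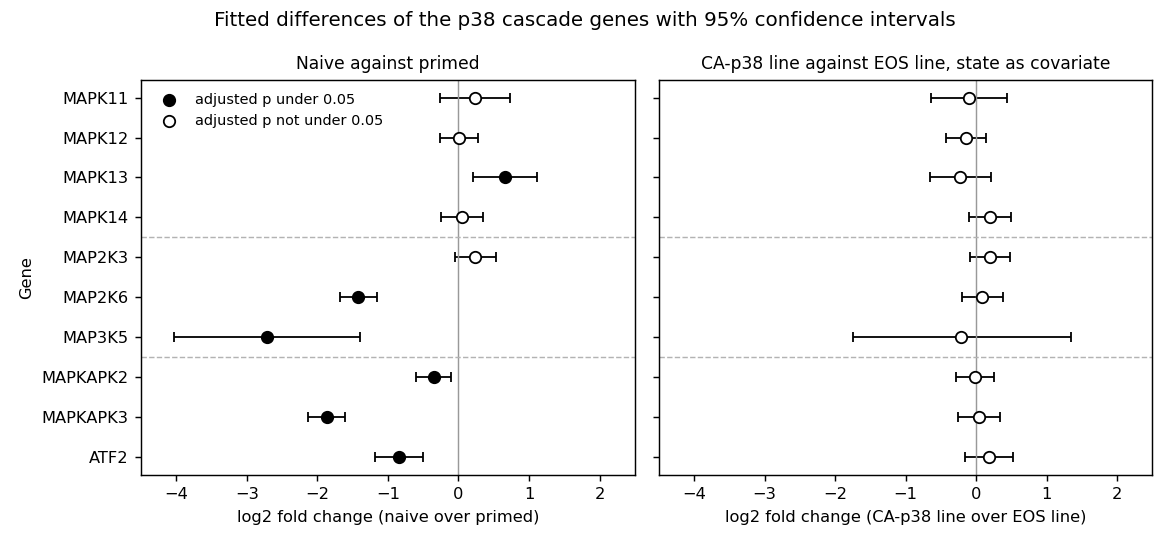
Fitted log2 fold changes of the 10 genes with 95% confidence intervals, for naive over primed libraries (left) and for the CA-p38 line over the EOS line with state as a covariate (right). Filled points passed the test (adjusted p under 0.05), and all 10 intervals on the right include 0.

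All 3 effectors were called lower in naive cells, against 27% of all genes tested, and the call of MAPKAPK2 was lost under some alternatives. MAPKAPK3 (MK3, ENSG00000114738, chromosome 3, 50611520 to 50649291, plus strand) had 14.1 CPM in AICAR 1, 15.8 in AICAR 2, 15.8 in VPA and 15.3 in CA-p38, against 54.3 in the primed EOS and 57.4 CPM in the primed CA-p38 library. The naive libraries were within 1.12-fold of each other and far below the primed libraries. MAPKAPK3 was 3.66-fold lower in naive cells (log2 fold change -1.87, SE 0.12, adjusted p = 4.19e-08), and the log2 difference was -1.83 within the EOS line and -1.90 within the CA-p38 line.

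MAPKAPK2 (MK2, ENSG00000162889, chromosome 1, 206684905 to 206734281, plus strand), the main p38 effector kinase in most cells, had 52.1, 48.7, 59.2 and 50.7 CPM in the AICAR 1, AICAR 2, VPA and CA-p38 libraries, against 65.1 in the primed EOS and 68.9 CPM in the primed CA-p38 library. The naive libraries lay below both primed libraries, but the difference was small, 1.27-fold (log2 fold change -0.35, SE 0.12, adjusted p = 0.0226). The call was lost without AICAR 2 (-0.31, adjusted p = 0.0518), without primed CA-p38 (-0.30, adjusted p = 0.144), without both libraries of the CA-p38 line (-0.30, adjusted p = 0.179) and with library totals as scaling (-0.25, adjusted p = 0.0702). Counts of MAPKAPK2 were 3.07 to 3.75 times those of MAPKAPK3 in naive libraries and 1.20 times in both primed libraries, so the ratio was 2.88-fold higher in naive cells. Per kb of MANE Select transcript, the mean ratio was 2.84 in naive and 0.985 in primed libraries.

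ATF2 (ENSG00000115966, chromosome 2, 175072250 to 175168382, minus strand), a transcription factor that p38 and JNK activate, had 19.0 CPM in AICAR 1, 20.7 in AICAR 2, 17.4 in VPA and 25 in CA-p38, against 38.6 in the primed EOS and 35.0 CPM in the primed CA-p38 library. The naive libraries were all below the primed ones, with the CA-p38 library the highest of the naive libraries. ATF2 was 1.79-fold lower in naive cells (log2 fold change -0.84, SE 0.15, adjusted p = 0.000505). The log2 difference was -1.02 within the EOS line and -0.48 within the CA-p38 line, a difference between the lines that did not pass the test (0.54, SE 0.30, adjusted p = 0.9999).

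**Figure D3:**
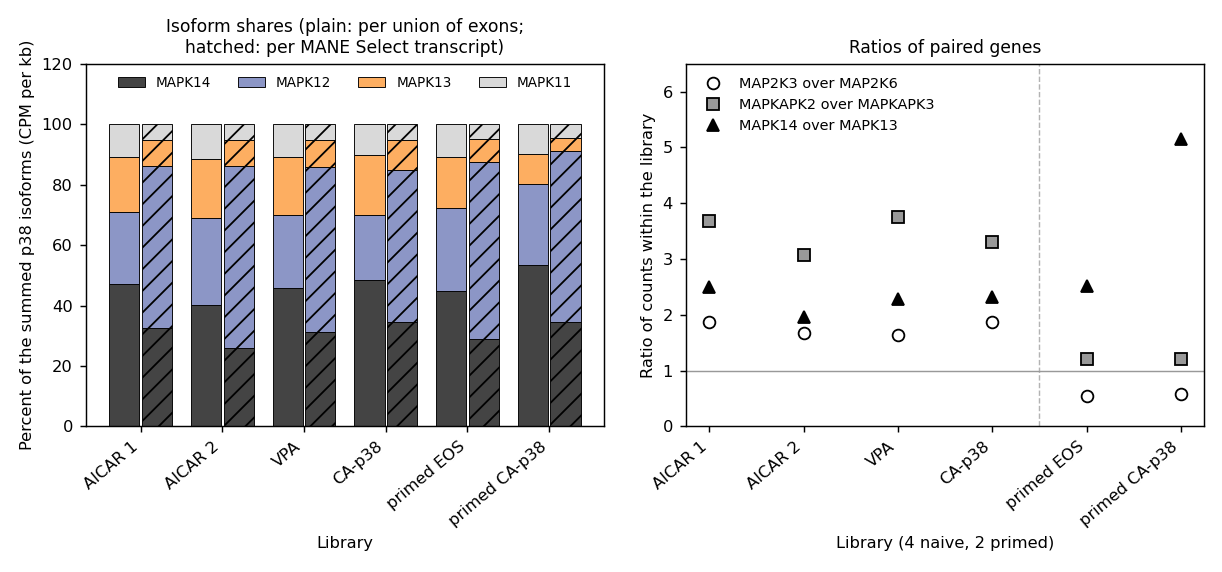
Left, percent of each p38 isoform in the summed CPM per kb of the 4 isoforms in each library, per union of exons (plain) and per MANE Select transcript (hatched). Right, ratio of counts of paired genes within each library, in which MAP2K3 over MAP2K6 is 1.64 to 1.87 in naive and 0.540 to 0.577 in primed libraries, and MAPKAPK2 over MAPKAPK3 is 3.07 to 3.75 and 1.20.

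Levels between genes were compared per kb of the union of exons. In naive cells the order was MAPKAPK2 (12.4 ± 1.08 CPM per kb, SD, n = 4), MAP2K3 (9.98 ± 1.0), MAPK14 (7.46 ± 0.942), MAPK12 (4.02 ± 0.297), MAPKAPK3 (3.90 ± 0.205), ATF2 (3.57 ± 0.572), MAPK13 (3.16 ± 0.217), MAPK11 (1.79 ± 0.0675), MAP2K6 (1.28 ± 0.0998) and MAP3K5 (0.0796 ± 0.0665). The neighbours MAPK12, MAPKAPK3 and ATF2 lay within the spread of their libraries, and so did ATF2 and MAPK13. In primed cells the order was MAPKAPK2 (15.8 ± 0.648 CPM per kb, SD, n = 2), MAPKAPK3 (14.3 ± 0.552), MAP2K3 (8.46 ± 0.577), MAPK14 (7.21 ± 0.726), ATF2 (6.40 ± 0.442), MAPK12 (3.98 ± 0.184), MAP2K6 (3.43 ± 0.0760), MAPK13 (2.0 ± 0.791), MAPK11 (1.52 ± 0.121) and MAP3K5 (0.523 ± 0.0396). The libraries of MAPK14 and ATF2 overlapped, as did those of MAPK13 and MAPK11. With the MANE Select transcript as length, MAPK12 was first in naive cells (21.0 ± 1.55 CPM per kb, SD, n = 4) and MAPKAPK3 first in primed cells (22.0 ± 0.852 CPM per kb, SD, n = 2), so the top of the order depended on the length. The place of MAPK12 is uncertain with any length, since it shares sequence with HDAC10. In primed cells the libraries of MAPKAPK3 (21.4 and 22.6 CPM per kb), MAPKAPK2 (21.0 and 22.3) and MAPK12 (21.5 and 20.2) overlapped, so their order was within the spread. MAPK13, MAPK11, MAP2K6 and MAP3K5 had the same places with all 3 lengths tried.

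The libraries of the CA-p38 line, which carries the inducible p38, were then compared with those of the EOS line, with state as a covariate. The only naive library of the CA-p38 line was converted by CA-p38, and those of the EOS line by AICAR or VPA. In naive cells, line and conversion method therefore could not be told apart. None of the 10 genes passed the test with edgeR, nor did any other gene (0% of 26497), and 1126 genes had an unadjusted p under 0.05, none of them among the 10. DESeq2 called 5 genes of all tested and limma-voom 0, and neither called any of the 10. MAPK14 had 55.4 CPM in the CA-p38 library against 41.1 to 53.1 CPM in the naive libraries of the EOS line, and 52.1 CPM in primed CA-p38 against 45.2 CPM in primed EOS. It was highest in the CA-p38 line in both states, by a fitted 1.14-fold (95% confidence interval 0.930 to 1.40, log2 0.19, SE 0.14, adjusted p = 0.998). The methods give the mutations that make the transgene p38 active, but not the isoform or the species of its cDNA. Whether its reads are counted under MAPK14 was not tested. MAP2K3 had the smallest unadjusted p of the 10 genes (log2 0.20, SE 0.13).

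Whether the change between states differed between the lines was tested as an interaction, with 2 residual degrees of freedom. The AICAR and VPA libraries served as replicates of the naive EOS line here. Line and conversion method again could not be told apart in naive cells. None of the 10 genes passed with edgeR, against 1 of all genes tested (0.00377%), 853 at an unadjusted p under 0.05 and 29 of 15195 with DESeq2. The count over all genes was unstable, at 28 without VPA and 8 without a filter beyond 1 count, and none of the 10 genes was called in these settings either. MAPK13 was the only member with an unadjusted p under 0.05 (log2 0.97, SE 0.32, adjusted p = 0.9999 in edgeR). Its log2 difference of naive over primed cells was 0.27 in the EOS line and 1.24 in the CA-p38 line. Each of these comparisons rests on 1 primed library per line.

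The rest of the cascade was described with 83 further genes in 10 lists, of which 82 could be tested. Of these, 24 were higher and 29 lower in naive cells and 29 did not pass. The median log2 fold change of the 82 genes was 0.00. Over all genes tested, 26% were higher and 27% lower, which is the background for the count of every list below. Of 24 other upstream kinases and activators, 12 were lower and 6 higher. MAP3K6 (ASK2), the partner of ASK1, had 91.4, 80.4, 93.2 and 93.3 CPM in the AICAR 1, AICAR 2, VPA and CA-p38 libraries, against 10.9 in the primed EOS and 8.28 CPM in the primed CA-p38 library, a log2 fold change of 3.22 (SE 0.15, adjusted p = 2.71e-09). It thus moved opposite to MAP3K5, and the ratio of MAP3K5 to MAP3K6 counts was 0.000615 to 0.0120 in naive libraries and 0.260 and 0.380 in primed libraries. The lowest ratio, in VPA, rests on 3 counts of MAP3K5, the limit of detection. GADD45B, which binds and activates the MAP3 kinase MEKK4, rose from 1.80 and 2.72 CPM in primed libraries to 19.4 to 24.2 CPM in naive libraries (log2 3.25, SE 0.22, adjusted p = 7.37e-08). MAP3K20 (ZAK), a sensor of stalled ribosomes, was lower in naive cells (log2 -1.52, SE 0.12, adjusted p = 2.49e-07), as was MAP3K3 (MEKK3; log2 -1.47, SE 0.17, adjusted p = 8.77e-06).

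**Figure D4:**
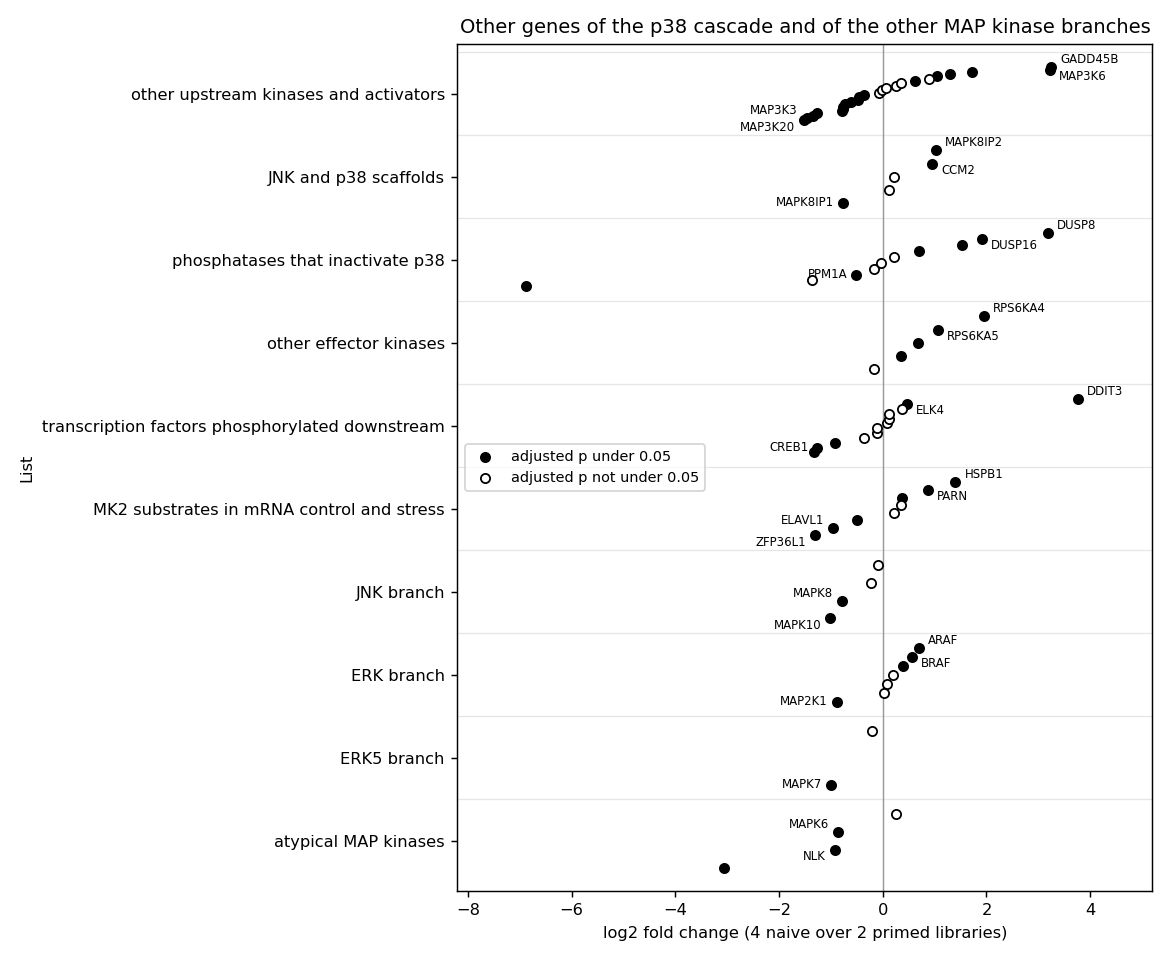
Fitted log2 fold changes (4 naive over 2 primed libraries) of the other 82 genes tested less 1 not shown, by list, with filled points for adjusted p under 0.05 and names for the genes chosen by the naming rule. All 4 called effector kinases lie right of 0 and the called JNK, ERK5 and atypical genes lie left of 0, and the point at -6.88 is DUSP2. The lists are small, and differences between them were not tested. Over all genes tested, 26% were called higher and 27% lower in naive cells.

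Of 10 phosphatases that inactivate p38, 4 were higher and 2 lower in naive cells. DUSP16, a nuclear-cytoplasmic MAP kinase phosphatase, had 92.7 to 125 CPM in naive libraries, against 32.2 and 27.3 CPM in primed libraries (log2 1.91, SE 0.14, adjusted p = 1.89e-07). DUSP8 had 5.52 to 11.7 CPM against 0.930 and 1.23 CPM (log2 3.19, SE 0.36, adjusted p = 7.13e-06). PPM1A, a metal-dependent phosphatase of p38 and its kinases, was lower (log2 -0.51, SE 0.11, adjusted p = 0.00167). DUSP2, outside the naming rule and named after its values were seen, had 0 CPM in 3 naive libraries, 0.0805 CPM in AICAR 2 and 2.2 and 2.94 CPM in primed libraries. Of 5 scaffolds of JNK and p38, CCM2, a scaffold of MEKK3 and MKK3, was higher in naive cells (log2 0.95, SE 0.13, adjusted p = 5.11e-05), MAPK8IP2 was higher (log2 1.03, SE 0.23, adjusted p = 0.00216) and MAPK8IP1 was lower (log2 -0.76, SE 0.14, adjusted p = 0.000516).

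Of 5 other effector kinases, 4 were higher in naive cells and none was called lower, against 26% and 27% of all genes tested, and MKNK2 had a log2 fold change of -0.17 (SE 0.10, adjusted p = 0.173). The mitogen- and stress-activated kinases, which phosphorylate CREB1 and histone H3, both rose. RPS6KA4 (MSK2) had 68.5 CPM in AICAR 1, 57.2 in AICAR 2, 64.7 in VPA and 72.5 in CA-p38, against 16.6 in the primed EOS and 17.4 CPM in the primed CA-p38 library (log2 1.95, SE 0.14, adjusted p = 1e-07). RPS6KA5 (MSK1) had 16.7 to 23.0 CPM against 8.25 and 10.4 CPM (log2 1.06, SE 0.18, adjusted p = 0.000324). Neither gene overlapped between the states, which was also so for 64.9% of all genes tested.

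Of 13 transcription factors phosphorylated downstream of p38, 2 were higher and 4 lower in naive cells, and 7 did not pass. DDIT3 (CHOP), a factor of the unfolded protein response, rose from 2.24 and 1.98 CPM in primed libraries to 26.1 to 34.9 CPM in naive libraries (log2 3.77, SE 0.20, adjusted p = 7.67e-09). ELK4 was higher by a log2 of 0.47 (SE 0.13, adjusted p = 0.00726), but not past the threshold without primed EOS (adjusted p = 0.0526) or without both libraries of the CA-p38 line (adjusted p = 0.0939). CREB1, a factor that binds cAMP response elements, was lower, with 30.3 to 34.5 CPM in naive libraries against 68.5 and 87.6 CPM (log2 -1.26, SE 0.12, adjusted p = 2.28e-06). Of 9 MK2 substrates, 8 could be tested, with 3 higher and 3 lower. HSPB1, the small heat shock protein HSP27, had 267 to 317 CPM in naive libraries against 118 and 98.4 CPM (log2 1.40, SE 0.12, adjusted p = 4.91e-07), and PARN, a poly(A) ribonuclease, was higher by a log2 of 0.87 (SE 0.11, adjusted p = 1.93e-05). The mRNA-binding proteins ZFP36L1 (log2 -1.30, SE 0.13, adjusted p = 3.5e-06) and ELAVL1 (log2 -0.95, SE 0.09, adjusted p = 2.12e-06) were lower.

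In the other MAP kinase branches, the JNK branch had 2 of 4 genes lower in naive cells, MAPK10 (log2 -1.01, SE 0.22, adjusted p = 0.00191) and MAPK8 (log2 -0.79, SE 0.14, adjusted p = 0.0003). The ERK branch, whose kinase MEK is inhibited in PXGL, had 3 of 7 genes higher, among them ARAF (log2 0.69, SE 0.16, adjusted p = 0.00281) and BRAF (log2 0.56, SE 0.15, adjusted p = 0.00821, 0.0706 without primed EOS and 0.0704 without both libraries of the CA-p38 line), and 1 lower, MAP2K1, which encodes MEK1 (log2 -0.89, SE 0.12, adjusted p = 3.07e-05). Of 2 ERK5 genes, MAPK7, which encodes ERK5, was lower (log2 -0.99, SE 0.13, adjusted p = 2.84e-05). Of 4 atypical MAP kinases, 3 were lower, among them NLK (log2 -0.93, SE 0.12, adjusted p = 3.15e-05) and MAPK6 (log2 -0.86, SE 0.12, adjusted p = 4.82e-05). The differences between these branches were not tested.

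Further called genes of the lists other than the upstream kinases were named after their values were seen. Higher in naive cells were the phosphatases DUSP10 (log2 1.52, SE 0.34, adjusted p = 0.00212) and PPM1D (log2 0.70, SE 0.13, adjusted p = 0.000627), the effector kinases MKNK1 (log2 0.68, SE 0.14, adjusted p = 0.00113) and MAPKAPK5 (log2 0.35, SE 0.10, adjusted p = 0.0139), the MK2 substrate TSC2 (log2 0.37, SE 0.11, adjusted p = 0.01) and MAPK3, which encodes ERK1 (log2 0.39, SE 0.14, adjusted p = 0.0312). Lower in naive cells were the transcription factors MEF2C (log2 -1.33, SE 0.50, adjusted p = 0.0386) and TCF3 (log2 -0.93, SE 0.10, adjusted p = 4.65e-06), the RNA-binding protein HNRNPA0 (log2 -0.49, SE 0.09, adjusted p = 0.000486) and the atypical kinase MAPK4 (log2 -3.06, SE 0.35, adjusted p = 9.86e-06). Of these, TSC2 did not pass under 1 alternative, MAPKAPK5 under 3, MEF2C under 4 and MAPK3 under 7.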

How the data were processed

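Polyadenylated RNA was sequenced from 4 naive and 2 primed libraries. The authors trimmed reads with cutadapt 1.15 through Trim Galore 0.4.4, aligned them with Bowtie2 to Ensembl GRCh38 cDNA and noncoding RNA sequences and counted, per gene, the alignments whose mapping quality was 1 or more. These raw counts, not normalized, were deposited by the authors for each Ensembl identifier. RPKM values from RSEM and limma voom values, which the study also used, were not used here. Whether counting used the strand is not given in the sources used here. The table also held 23 columns from elsewhere, not used here, and 26 spike-in rows, which had at most 1 count in a library and were left out.

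Counts of identifiers that share a name were summed (48183 names). Naive and primed libraries were compared in R 4.3.3 with edgeR 4.0.16 (glmQLFit, then glmQLFTest, after TMM scaling and filterByExpr grouped by state) without covariates. P-values were adjusted over all 26497 genes by the Benjamini-Hochberg method and called under 0.05. The common dispersion was 0.0563. For the comparison of lines, line was added to state, and for the interaction their product. Because 0.0667 is the smallest two-sided p of an exact permutation of 4 and 2 libraries, p-values were taken from the model across all genes. No pair of naive libraries was a duplicate (chi-square of 19.8 to 35.9 per gene between counts). This does not show that they were separate cultures, and each was counted as 1 replicate. Alternatives were DESeq2 1.42.0 and its size factors, library totals, limma-voom (limma 3.58.1), other filters, identifiers kept apart, summed AICAR libraries, line as a covariate and each library left out. Leaving out both libraries of the CA-p38 line and the length of the MANE Select transcript were chosen after seeing the data.

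Positions, lengths and sequences came from GENCODE release 44 on GRCh38. The 10 members and the lists were chosen with earlier results of these data known. All members are named, and from every other list the called genes with a mean level of 5 CPM or more and the highest or lowest log2 fold change, up to 2 in each direction. From the list of transcription factors, 1 gene is not reported here. Other steps used Python 3.11.15 (pandas 2.3.3, scipy 1.17.1, matplotlib 3.10.9).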

Additional observations from a re-analysis of the deposited data

Results flagged for a closer look

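In groups of 4 to 10 samples, a library was singled out when its gap to the nearest other library relative to the range of the group exceeded Dixon's 95% critical value. Chance singles out about 1 in 20 groups, and 38 genes, the 10 members and the 28 genes named from the other lists, were checked. None of the 10 members was singled out. MAP3K6 was lowest in AICAR 2, at 80.4 CPM, with the other naive libraries at 91.4 to 93.3 CPM. DUSP8 was lowest in CA-p38, at 5.52 CPM, with the others at 10.9 to 11.7 CPM. DDIT3 was highest in AICAR 1, at 34.9 CPM, with the others at 26.1 to 27.4 CPM. All 3 genes stayed on the same side of both primed libraries in every naive library.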

How the results depend on the processing

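The number of the 10 genes that differed between the states was 4 to 6 over all 16 alternatives. MAPKAPK3, MAP2K6 and ATF2 were lower in naive cells and passed in each of them, and MAP3K5 in each in which it could be tested. The number of the other 83 genes that differed was 45 to 56, against 53. Over all genes, the median log2 fold change was 0.11 (TMM), 0.06 (DESeq2 size factors) or 0.20 (library totals). The mean MAPK14 percent of the summed p38 isoforms over the 6 libraries was 46.6% per union of exons, 51.9% per longest transcript and 31.3% per MANE Select transcript. Without a call under any alternative, the log2 fold change of MAPK12 changed sign to -0.04 with DESeq2 size factors and with DESeq2, -0.01 without a filter beyond 1 count, -0.0048 with identifiers kept apart, -0.0031 with the AICAR libraries summed, -0.0074 without both CA-p38 libraries and -0.02 with line as a covariate, and ran from -0.03 to 0.05 with 1 library left out. That of MAPK14 was -0.0012 with DESeq2 size factors and with DESeq2 and ran from -0.06 to 0.16 with 1 library left out. Between the lines, none of the 10 genes passed under any alternative, MAP3K5 had 0.16 with limma-voom, and MAPKAPK2 had 0.02 with DESeq2 size factors and with DESeq2 and 0.0049 without a filter beyond 1 count. With 1 library left out, the differences between the lines ran from -0.82 to 0.14 for MAPK13, -0.54 to 0.25 for MAP3K5, -0.07 to 0.10 for MAPKAPK2 and -0.13 to 0.40 for ATF2. The cause of these shifts was not tested. The interaction could not be fitted without the CA-p38 library or either primed library, and the lines could not be compared without the CA-p38 libraries. No paired analysis was possible because the labels give no replicate numbers shared between naive and primed libraries. With line as a covariate instead, 6 of the 10 genes differed. Depth limited only MAP3K5, with as few as 3 counts.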
